A study of Arabidopsis thaliana with 12 samples.

Results

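HUB1, HUB2, SNL1, SNL2, HDA19, TPL, KYP, SUVH5, LDL1 and LDL2 are 10 genes of Arabidopsis thaliana whose proteins write, remove or act on histone marks and for which mutants with altered seed dormancy or germination are known, or which work in a complex with such genes. They were taken by gene identifier, and all 10 were found among the 32833 genes measured by RNA sequencing. The study compared seeds of accession Col-0, the wild type, with seeds of erf4-1, a line in the Col-0 background that the labels call a knockout of ERF4. ERF4 is an ethylene response factor with an EAR repressor motif. Seeds were freshly harvested from plants grown under long days and were taken dry or once imbibed, meaning left to take up water from soaked filter paper, for 6 h. The 12 libraries form 4 groups of 3: Col-0 dry, erf4 dry, Col-0 imbibed and erf4 imbibed. A single mutant line was used, the labels name no complemented control, and the tissue is seed throughout.

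Freshly harvested seeds of this species are dormant to a degree that depends on the accession, and chromatin state is one of the layers that set it. HUB1 and HUB2 attach ubiquitin to histone H2B, a mark of active transcription. SNL1 and SNL2 are SIN3-type scaffolds that bring the histone deacetylase HDA19 to its targets, and TPL (TOPLESS) is a co-repressor that binds EAR motifs and can also recruit HDA19. KYP (also SUVH4) and SUVH5 methylate lysine 9 of histone H3, a repressive mark, while LDL1 and LDL2 are demethylases of the LSD1 type. In published genetics, HUB1 and the SNL pair promote dormancy, whereas KYP and the LDL pair limit it and act on expression of DOG1, a central dormancy gene.

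Levels are given as RPKM (read counts divided by exonic length and by library size, the latter scaled by TMM factors, which set the bulk of genes equal between libraries). Total gene counts ranged from 31787283 to 42590777 per library. The ERF4 transcript did not follow the labels in every library. It stood at 9.95 to 12.6 RPKM in dry Col-0 and at 3.08, 7.15 and 12.1 RPKM in the dry libraries labelled erf4. In imbibed seeds it stood at 12.5 to 16.7 RPKM in Col-0 and at 1.32, 5.58 and 11.8 RPKM in the libraries labelled erf4. Replicate 3 labelled erf4 thus lay within the Col-0 range in dry seeds and a little below it in imbibed seeds. Every direction given for erf4 below therefore rests on the labels. The seed storage and oil body markers CRA1, CRB, CRC, SESA1, OLEO1 and PAP85 were present in every group and summed to 67710 to 242900 CPM (counts scaled to library size and TMM factor, not to length). The 9 pollen markers summed to 234.5 to 407.6 CPM in dry Col-0, 30.6 to 61.75 in dry erf4, 4.91 to 8.60 in imbibed Col-0 and 5.27 to 7.96 in imbibed erf4. The 6 green leaf markers summed to 50.9 to 66.1, 76.0 to 204.8, 47.6 to 72.4 and 100 to 146.4 CPM in the same order. Nothing in the labels ties replicates to separate plants or batches of seed, so p-values measure the spread between these libraries, which may be technical.

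Compared per length, the 10 genes are described here in 3 tiers of transcript level, whose ranges did not overlap in any group. HDA19 and TPL formed the upper tier, with 71.8 ± 4.996 and 51.2 ± 2.38 RPKM in dry Col-0 (SD, n = 3). HDA19 lay above 93.2% and TPL above 90% of the genes tested there. The H2B ubiquitin ligases and the SIN3-type scaffolds formed the middle tier. SNL1 stood at 28.2 ± 2.63, HUB2 at 25.3 ± 2.07, HUB1 at 23.3 ± 1.58 and SNL2 at 23.1 ± 1.63 RPKM in dry Col-0, and each overlapped its neighbour in that order. The lower tier was spread widely. LDL1, at 2.42 ± 0.356 RPKM, was set apart from the rest of it, without overlap in any group. Below lay KYP at 0.226 ± 0.105, LDL2 at 0.1999 ± 0.0519 and SUVH5 at 0.0375 ± 0.0172 RPKM, where KYP and LDL2 overlapped. SUVH5 lay above only 2.29% of the tested genes. It had 2 to 6 counts per dry Col-0 library and 4 to 9 per dry erf4 library, so that its dry level is close to the limit of 3 counts at this depth. After imbibition the middle tier separated: SNL1 lay above SNL2, SNL2 above HUB2, and HUB2 overlapped HUB1, in both genotypes. In imbibed erf4 the ranges of HDA19 and TPL overlapped, as did those of LDL2 and SUVH5.

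**Figure D1:**
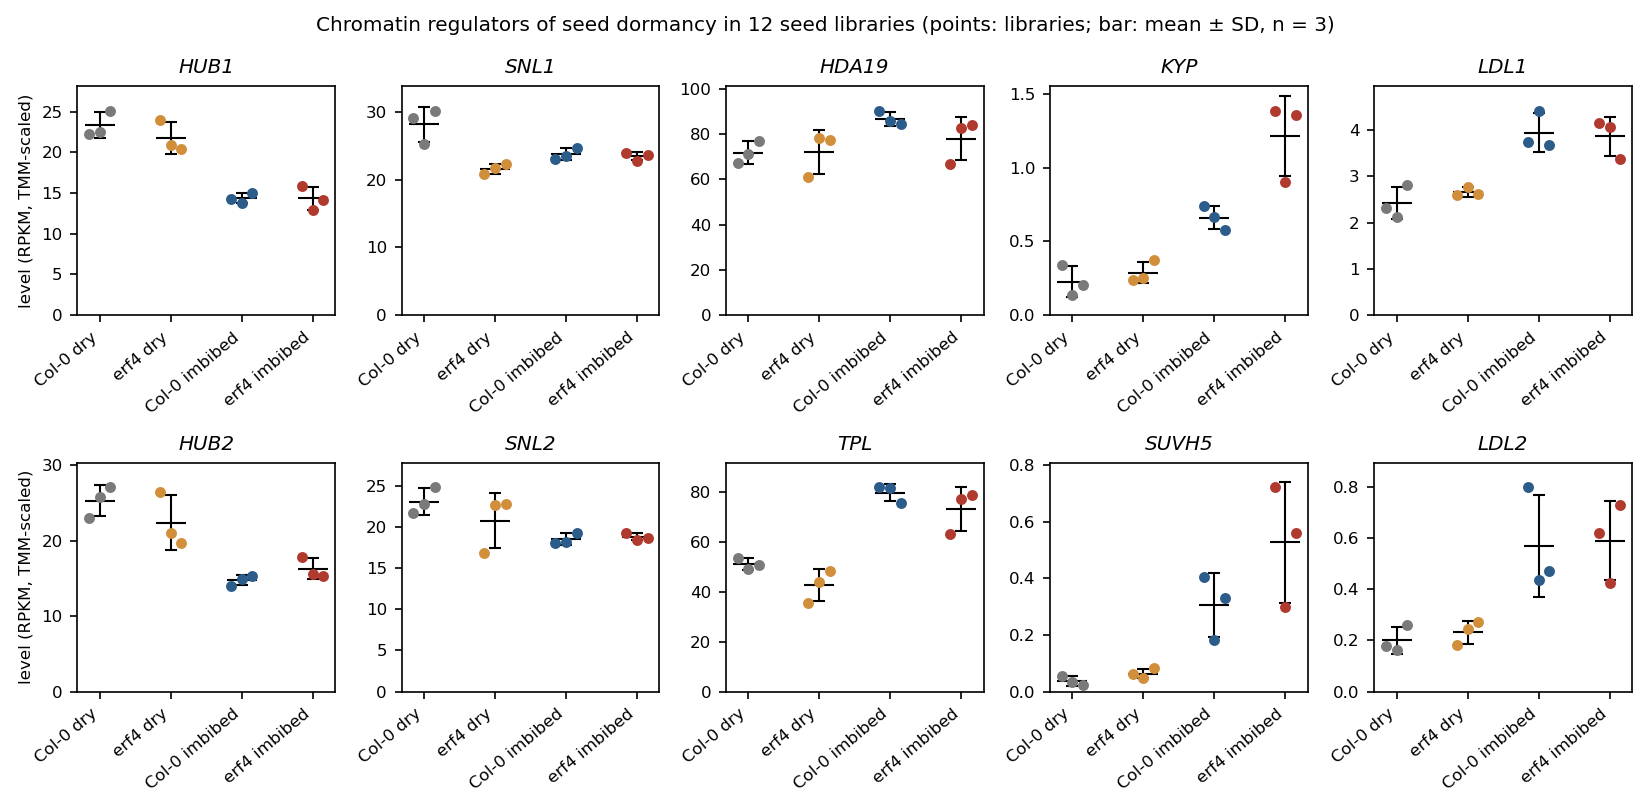
Transcript level (RPKM, TMM-scaled, linear axes from 0) of each gene in the 12 libraries, by group. Points are libraries and bars the mean ± SD (n = 3). HUB1 and HUB2 sit lower in all imbibed libraries than in all dry ones, and TPL, KYP, SUVH5, LDL1 and LDL2 sit higher. Of all tested genes, 65.8% in Col-0 and 58.5% in erf4 had dry and imbibed libraries without overlap.

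The first question was how these genes moved during the first 6 h of imbibition. In Col-0, 5 of the 10 rose (TPL, KYP, SUVH5, LDL1 and LDL2) and 3 fell (HUB1, HUB2 and SNL2), by edgeR's quasi-likelihood test at 0.05 after Benjamini-Hochberg adjustment across the 18897 genes tested. In erf4 the same 5 rose, and HUB1 and HUB2 fell. Over all tested genes, 52.5% were called in Col-0 (27.2% higher, 25.2% lower) and 55.5% in erf4 (28.4% higher, 27.2% lower). The median log2 fold change was 0.46 over the 10 genes in Col-0 and 0.33 in erf4, against 0.05 and 0.04 over all tested genes. All 10 passed the filter on low counts. SUVH5 passed it through its imbibed libraries alone, so its rise was in part a condition of its being tested.

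These directions are relative to the bulk of genes, because the TMM factors were 0.740 to 0.929 in dry and 1.07 to 1.30 in imbibed libraries. Scaled to library totals instead, the median gene stood 0.54 higher in imbibed than in dry seeds on the log2 scale in each genotype. The share of calls that were higher then went from 51.9 to 78.1% in Col-0 and from 51.0 to 76.5% in erf4. Genes called with library totals numbered 10809 in Col-0 and 11269 in erf4, of 18897 tested. These values stand beside every count of calls with library totals below. Under that scaling the 5 rises remained called in both genotypes and no fall did. Relative to the median gene, HUB1 fell by 0.75 and HUB2 fell by 0.83 in Col-0 on the log2 scale. In whole seeds, fewer cells of a type and less RNA per cell cannot be told apart.

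**Figure D2:**
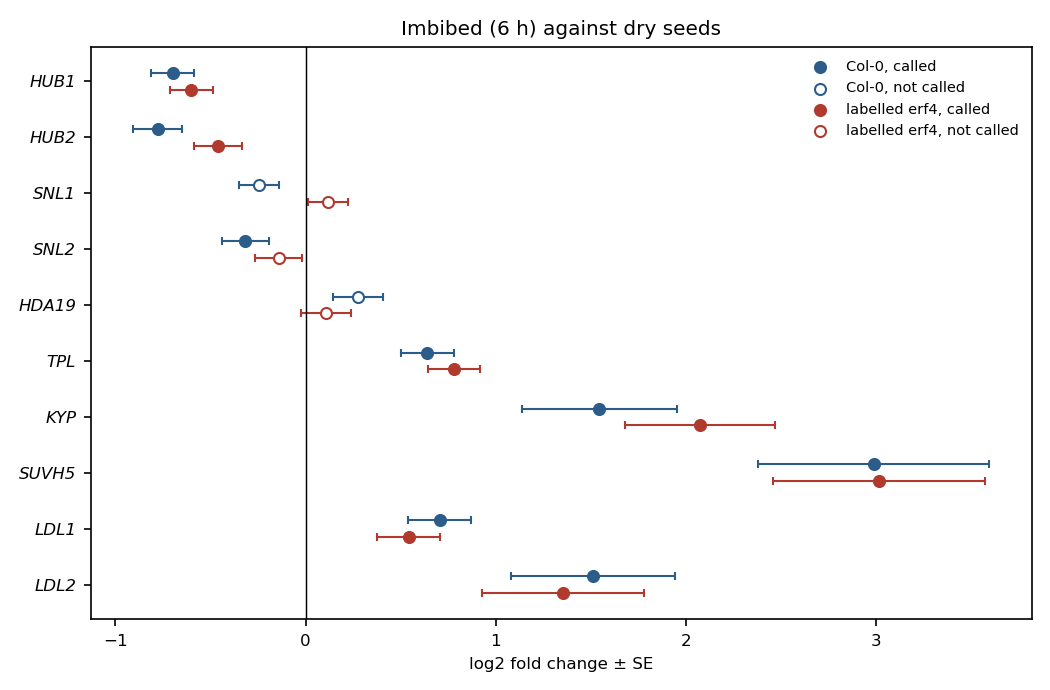
Log2 fold change (x axis, ± SE) of each gene between imbibed and dry seeds, in Col-0 and in libraries labelled erf4. Filled points were called and open points were not. The values run from -0.78 (HUB2, Col-0) to 3.02 (SUVH5, erf4).

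Both H2B ubiquitin ligase genes were lower in imbibed seeds. HUB1 (AT2G44950, chromosome 2, 18542175 to 18548652, minus strand of TAIR10), first found as the REDUCED DORMANCY 4 gene, stood at 22.3, 22.5 and 25.1 RPKM in dry Col-0 and at 14.3, 13.8 and 14.98 RPKM in imbibed Col-0. In erf4 it stood at 24.0, 20.9 and 20.4 RPKM dry and at 15.8, 12.96 and 14.2 RPKM imbibed. No imbibed library reached the lowest dry library in either genotype. States without overlap were also found for 65.8% of all tested genes in Col-0 and 58.5% in erf4. These shares stand beside every such statement on imbibition below. HUB1 fell by 0.70 ± 0.11 SE on the log2 scale in Col-0 (edgeR adjusted p = 0.000202) and fell by 0.60 ± 0.11 in erf4 (edgeR adjusted p = 0.000578).

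HUB2 (AT1G55250, chromosome 1, 20606953 to 20612649, plus strand), its partner in the ligase, stood at 23.0, 25.8 and 27.1 RPKM in dry Col-0 and at 14.04, 14.9 and 15.4 RPKM in imbibed Col-0. In erf4 it stood at 26.5, 20.9 and 19.7 RPKM dry and at 17.8, 15.6 and 15.3 RPKM imbibed. The dry erf4 replicate 1 library was the highest of its group, and again the states did not overlap. HUB2 fell by 0.78 ± 0.13 in Col-0 (edgeR adjusted p = 0.000232) and fell by 0.46 ± 0.13 in erf4 (edgeR adjusted p = 0.0079). Scaled to library totals, HUB1 differed by -0.21 in Col-0 and -0.10 in erf4 (edgeR adjusted p = 0.186 and 0.547). HUB2 then differed by -0.29 in Col-0 and 0.04 in erf4 (edgeR adjusted p = 0.101 and 0.818), so that in erf4 its direction turned.

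Of the genes of the repressor complexes, TPL rose in both genotypes. TPL (AT1G15750, chromosome 1, 5414817 to 5421033, minus strand) stood at 53.8, 49.0 and 50.9 RPKM in dry Col-0 and at 82.1, 81.7 and 75.7 RPKM in imbibed Col-0. In erf4 it stood at 35.6, 44.1 and 48.3 RPKM dry and at 63.2, 77.4 and 79.1 RPKM imbibed. Every imbibed library lay above every dry library. TPL rose by 0.64 ± 0.14 in Col-0 (edgeR adjusted p = 0.00166) and by 0.78 ± 0.14 in erf4 (edgeR adjusted p = 0.000361). Its exons share 103 bp with AT1G15740 on the other strand. The strand setting of the counting was not given, and that neighbour fell in both genotypes (-1.86 and -1.67, edgeR adjusted p = 1.08e-05 and 2.22e-05).

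HDA19 (AT4G38130, chromosome 4, 17896278 to 17899509, minus strand), the deacetylase of these complexes, stood at 67.1, 71.3 and 77.1 RPKM in dry Col-0 and at 90.4, 85.6 and 84.6 RPKM in imbibed Col-0. These groups did not overlap, which was also so for 65.8% of all tested genes, and the difference of 0.27 ± 0.13 missed the threshold (edgeR adjusted p = 0.0962). HDA19 passed it in a fit on the compared groups alone, scaled to library totals, with a replicate block within each genotype and without both libraries labelled erf4 replicate 1. In erf4 HDA19 stood at 61.0, 78.4 and 77.3 RPKM dry and at 66.9, 82.8 and 83.9 RPKM imbibed, where the states overlapped, unlike for 58.5% of all tested genes (0.11 ± 0.13, edgeR adjusted p = 0.505).

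The SIN3-type scaffold genes showed small differences, of which SNL2 in Col-0 was called. SNL1 (AT3G01320, chromosome 3, 106294 to 113679, plus strand) stood at 29.1, 25.2 and 30.2 RPKM in dry Col-0 and at 23.1, 23.5 and 24.7 RPKM in imbibed Col-0 (-0.25 ± 0.11, edgeR adjusted p = 0.0644), with a call as lower under 7 of 24 alternatives. In erf4 it stood at 20.8, 21.8 and 22.3 RPKM dry and at 23.9, 22.8 and 23.7 RPKM imbibed (0.12 ± 0.11, edgeR adjusted p = 0.358). The imbibed libraries thus lay below the dry ones in Col-0 and above them in erf4, without overlap in either. The difference between these responses was 0.36 ± 0.15 and was not called (edgeR adjusted p = 0.419). SNL2 (AT5G15020, chromosome 5, 4859127 to 4866034, minus strand) stood at 21.7, 22.7 and 24.9 RPKM in dry Col-0 and at 18.1, 18.2 and 19.3 RPKM in imbibed Col-0. It fell by 0.32 ± 0.12 (edgeR adjusted p = 0.0459), a call lost under 13 of 24 alternatives, with adjusted p between 0.00336 and 0.242. In erf4 it ranged from 16.9 to 22.8 RPKM dry and from 18.5 to 19.3 RPKM imbibed (-0.14 ± 0.12, edgeR adjusted p = 0.35).

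The H3K9 methyltransferase genes rose from low dry levels. KYP (AT5G13960, chromosome 5, 4501362 to 4506250, plus strand) had 28, 12 and 14 counts in dry Col-0 (0.341, 0.136 and 0.2004 RPKM) and 75, 72 and 60 counts in imbibed Col-0 (0.736, 0.666 and 0.580 RPKM). In erf4 it had 24, 16 and 31 counts dry (0.240, 0.253 and 0.370 RPKM) and 170, 104 and 172 counts imbibed (1.39, 0.903 and 1.36 RPKM). The states did not overlap in either genotype, and the imbibed erf4 libraries were the highest. KYP rose by 1.55 ± 0.41 in Col-0 (edgeR adjusted p = 0.00616) and by 2.07 ± 0.40 in erf4 (edgeR adjusted p = 0.000724). Its exons share 60 bp with AT5G13970 on the other strand, which had 1211 to 3001 counts per library and fell in both genotypes (-0.82 and -1.24, edgeR adjusted p = 0.00062 and 2.32e-05).

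SUVH5 (AT2G35160, chromosome 2, 14822774 to 14826194, plus strand), a methyltransferase known to favour germination in the light, had 6, 4 and 2 counts in dry Col-0 and 54, 26 and 45 counts in imbibed Col-0. In erf4 it had 8, 4 and 9 counts dry and 116, 45 and 93 counts imbibed. No dry library reached 10 counts and every imbibed one exceeded 25. SUVH5 rose by 2.99 ± 0.61 in Col-0 (edgeR adjusted p = 0.000984) and by 3.02 ± 0.56 in erf4 (edgeR adjusted p = 0.000585). From the summed counts, the imbibed level was 7.99-fold the dry level in Col-0 (exact 95% interval 4.42 to 15.9) and 8.20-fold in erf4 (5.25 to 13.5). These intervals cover counting error only.

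Both LSD1-type demethylase genes rose. LDL1 (AT1G62830, chromosome 1, 23264486 to 23267221, minus strand, 1 exon) stood at 2.32, 2.13 and 2.82 RPKM in dry Col-0 and at 3.75, 4.42 and 3.67 RPKM in imbibed Col-0. In erf4 it stood at 2.59, 2.77 and 2.61 RPKM dry and at 4.15, 4.08 and 3.38 RPKM imbibed. The states did not overlap. LDL1 rose by 0.71 ± 0.17 in Col-0 (edgeR adjusted p = 0.00294) and by 0.54 ± 0.16 in erf4 (edgeR adjusted p = 0.0129).

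LDL2 (AT3G13682, chromosome 3, 4478873 to 4481767, minus strand) had 16, 16 and 20 counts in dry Col-0 and 90, 52 and 54 counts in imbibed Col-0. In erf4 it had 20, 17 and 25 counts dry and 84, 54 and 102 counts imbibed. Imbibed Col-0 replicate 1 was the highest of its group, and the states did not overlap. LDL2 rose by 1.51 ± 0.43 in Col-0 (edgeR adjusted p = 0.00995) and by 1.35 ± 0.42 in erf4 (edgeR adjusted p = 0.0159). The Col-0 call was lost without imbibed Col-0 replicate 1 and with a covariate for the letter that ends each library name. The erf4 call was lost without dry erf4 replicate 1, without imbibed erf4 replicate 3, and without both libraries labelled erf4 replicate 1 or 3. That of LDL1 in erf4 was lost without both of replicate 1 or 2. Pollen and seed storage markers fell with imbibition as well (9 of 9 pollen markers in each genotype; 5 and 4 of 6 storage markers in Col-0 and erf4), and their part in these results was not tested.

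The 250 bases before the annotated start are shown for the 4 rising histone-modifier genes and for HUB2, which fell, since members that moved together may be compared by the letters before their start. They are from the RefSeq genome of TAIR10.1, in which these genes have the same start and end as in the deposited table, and are written 5′ to 3′ on the strand of the gene. The window of HUB1 holds 90 bp of another gene's exons and is not shown. Capitals mark site II elements (TGGGCC or TGGGCT, on either strand, known from promoters of growth-related genes) and the ABRE core ACGTG.
KYP, chr5:4501112-4501361, plus strand: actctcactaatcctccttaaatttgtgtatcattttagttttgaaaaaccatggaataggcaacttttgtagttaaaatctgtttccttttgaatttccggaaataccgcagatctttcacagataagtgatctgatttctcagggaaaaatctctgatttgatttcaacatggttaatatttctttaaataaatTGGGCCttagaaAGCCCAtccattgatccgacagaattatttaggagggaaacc
SUVH5, chr2:14822524-14822773, plus strand: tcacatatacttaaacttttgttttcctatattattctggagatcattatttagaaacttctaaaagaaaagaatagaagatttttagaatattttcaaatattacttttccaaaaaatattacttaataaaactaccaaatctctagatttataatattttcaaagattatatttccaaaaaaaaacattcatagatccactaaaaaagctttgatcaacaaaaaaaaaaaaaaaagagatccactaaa
LDL1, chr1:23267222-23267471, minus strand: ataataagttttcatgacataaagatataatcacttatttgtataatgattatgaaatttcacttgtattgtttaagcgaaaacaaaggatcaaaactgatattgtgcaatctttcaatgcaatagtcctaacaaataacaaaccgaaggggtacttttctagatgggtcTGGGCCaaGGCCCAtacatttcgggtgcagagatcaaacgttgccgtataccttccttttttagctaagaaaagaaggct
LDL2, chr3:4481768-4482017, minus strand: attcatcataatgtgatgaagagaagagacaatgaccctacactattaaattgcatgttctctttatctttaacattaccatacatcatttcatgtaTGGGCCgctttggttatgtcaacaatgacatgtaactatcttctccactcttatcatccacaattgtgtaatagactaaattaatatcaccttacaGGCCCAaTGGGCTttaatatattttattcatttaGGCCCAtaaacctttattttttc
HUB2, chr1:20606703-20606952, plus strand: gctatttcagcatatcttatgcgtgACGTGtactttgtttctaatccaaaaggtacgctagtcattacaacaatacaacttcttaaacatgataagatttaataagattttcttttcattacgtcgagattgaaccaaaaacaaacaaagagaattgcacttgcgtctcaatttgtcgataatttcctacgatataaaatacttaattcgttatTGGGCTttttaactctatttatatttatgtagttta

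A site II element was present in 7 of the 10 windows (HUB2, SNL1, SNL2, HDA19, KYP, LDL1 and LDL2), and in 18% of 32546 windows of the same length before other and the same genes of the table. LDL2 held 4 matches, KYP and LDL1 held 2 each, SUVH5 held none, and HUB2 held 1, so that the matches did not part rising from falling genes. The ABRE core, known from genes that answer to abscisic acid, was matched in HUB2 alone, against 21.8% of all windows. The telo box AAACCCTA was matched in SNL2 alone, against 4.61%. No window of the 10 held the G-box CACGTG (5.9% of all windows; it contains the ABRE core), the GCC box GCCGCC to which ERF proteins bind (1.9%), or the E2F element TTTCCCGC (0.581%). Both strands were searched for each motif. A match is a string of letters and not a shown binding site.

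The pairs of related genes kept or changed their balance, and a ratio within a library does not depend on how libraries are scaled. The ratio of HUB1 to HUB2 per length was 0.874 to 1.04 in the 6 dry and 0.830 to 1.02 in the 6 imbibed libraries (difference of log2 ratios -0.037, two-sided exact permutation p = 0.522, adjusted over the 4 ratios 0.522). SNL1 to SNL2 was 0.959 to 1.343 dry and 1.23 to 1.29 imbibed (0.16, exact permutation p = 0.0931, adjusted p = 0.124). Its adjusted p was 0.0115 without dry Col-0 replicate 1. The ratio of KYP to SUVH5 went from 3.92 to 9.15 in dry to 1.74 to 3.62 in imbibed libraries, without overlap. It fell by 1.16 on the log2 scale (exact permutation p = 0.00217, the smallest the design allows; adjusted p = 0.00866), with -1.42 within Col-0 and -0.91 within erf4. The dry values of this ratio rest on 2 to 9 SUVH5 counts. SUVH5 passed the filter on low counts through its imbibed libraries alone, so this fall is no support apart from the rise of SUVH5. LDL1 to LDL2 was 9.64 to 14.3 dry and 4.65 to 10.14 imbibed. It fell by 0.79 (exact permutation p = 0.00433, adjusted p = 0.00866), with -0.78 within Col-0 and -0.80 within erf4. Pairing dry with imbibed libraries by genotype and number, an exact sign-flip test gave an adjusted p of 0.0625 for both of these ratios. Both were at the smallest p that 6 pairs allow. Given the other ratios, this test could not have called them, whatever the size of the change.

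**Figure D3:**
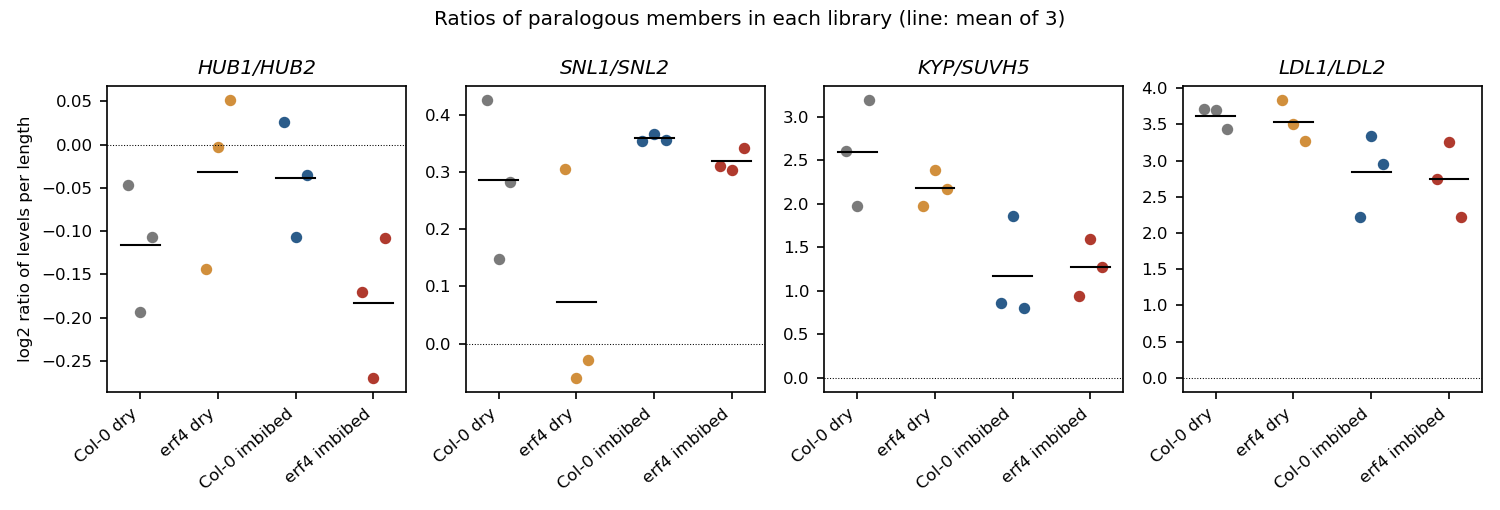
Log2 ratio of the levels per length of 4 related pairs (y axis; 0 is equal levels) in each of the 12 libraries, with the mean of 3 as a line. KYP/SUVH5 lies between 3.92 and 9.15 in linear terms in dry libraries and between 1.74 and 3.62 in imbibed ones, while HUB1/HUB2 stays between 0.830 and 1.04 throughout.

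The second question was whether the genes differed between erf4 and Col-0. None of the 10 was called in dry seeds, where 1.1% of all tested genes were (0.519% higher, 0.577% lower), nor in imbibed seeds, where 0.0212% were (0.0159% higher, 0.00529% lower) (edgeR, 0 of 10 in each). At an unadjusted p under 0.05 there was 1 of 10 in each state, against 15.6% and 15% of all tested genes. DESeq2 called 1 of the 10 in dry seeds, where it called 911 genes of the table. It called none of the 10 in imbibed seeds, where it called 511 genes. The median log2 fold change of the 10 was -0.05 dry and 0.01 imbibed, against 0.01 in each state over all tested genes. The share of calls that were higher in dry erf4 was 47.3%, or 68.5% scaled to library totals.

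SNL1 was the gene with the smallest p in dry seeds. Its dry erf4 libraries, given above, lay below all dry Col-0 libraries, with 21.6 ± 0.735 against 28.2 ± 2.63 RPKM (SD, n = 3). Groups that did not overlap were found for 18.7% of all tested genes in this comparison (8.18% higher, 10.5% lower). The difference was -0.38 ± 0.11 (edgeR adjusted p = 0.0991) and was called by DESeq2 alone (adjusted p = 0.0104), with adjusted p up to 0.335 over the alternatives. TPL was also lower without overlap, 42.7 ± 6.49 against 51.2 ± 2.38 RPKM, and was not called (-0.26 ± 0.14, edgeR adjusted p = 0.379). In the same comparison 7 of 9 pollen markers fell and the ranges of the green leaf sum did not overlap, and their part in these values was not tested. In imbibed seeds SNL1 stood at 23.5 ± 0.618 in erf4 and 23.8 ± 0.857 RPKM in Col-0 (-0.02 ± 0.11, edgeR adjusted p = 0.961).

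KYP had the smallest p in imbibed seeds. All 3 erf4 libraries lay above all Col-0 libraries, at 1.22 ± 0.271 against 0.661 ± 0.0784 RPKM, and 25.8% of all tested genes had groups without overlap in this comparison (13.1% higher, 12.7% lower). The difference was 0.88 ± 0.38 (edgeR adjusted p = 0.305, between 0.148 and 0.641 over the alternatives). SUVH5 stood at 0.528 ± 0.214 and 0.307 ± 0.113 RPKM, with overlap (0.78 ± 0.50, edgeR adjusted p = 0.493). HDA19 lay lower in erf4, at 77.9 ± 9.50 against 86.9 ± 3.10 RPKM, without overlap (-0.16 ± 0.13, edgeR adjusted p = 0.605).

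For the well-measured genes the approximate 95% intervals of the genotype difference were narrow. They include replicate 3 labelled erf4, whose ERF4 transcript lay within or a little below the Col-0 range. The intervals therefore bound the difference between labels only. HUB1 lay between -0.32 and 0.12 dry and between -0.23 and 0.22 imbibed on the log2 scale, and HDA19 between -0.25 and 0.27 dry. LDL1 lay between -0.19 and 0.46 dry and between -0.35 and 0.29 imbibed. The sparsely counted genes left wide intervals, from -0.53 to 2.03 for SUVH5 and from -0.66 to 1.08 for LDL2 in dry seeds. Both of these intervals include a 2-fold higher level in erf4. Of the 10 genes, only SNL1 in dry seeds (-0.59 to -0.17) and KYP in imbibed seeds (0.13 to 1.62) had intervals that left out 0. Neither was called. The interval of TPL in dry seeds ran from -0.53 to 0.01.

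**Figure D4:**
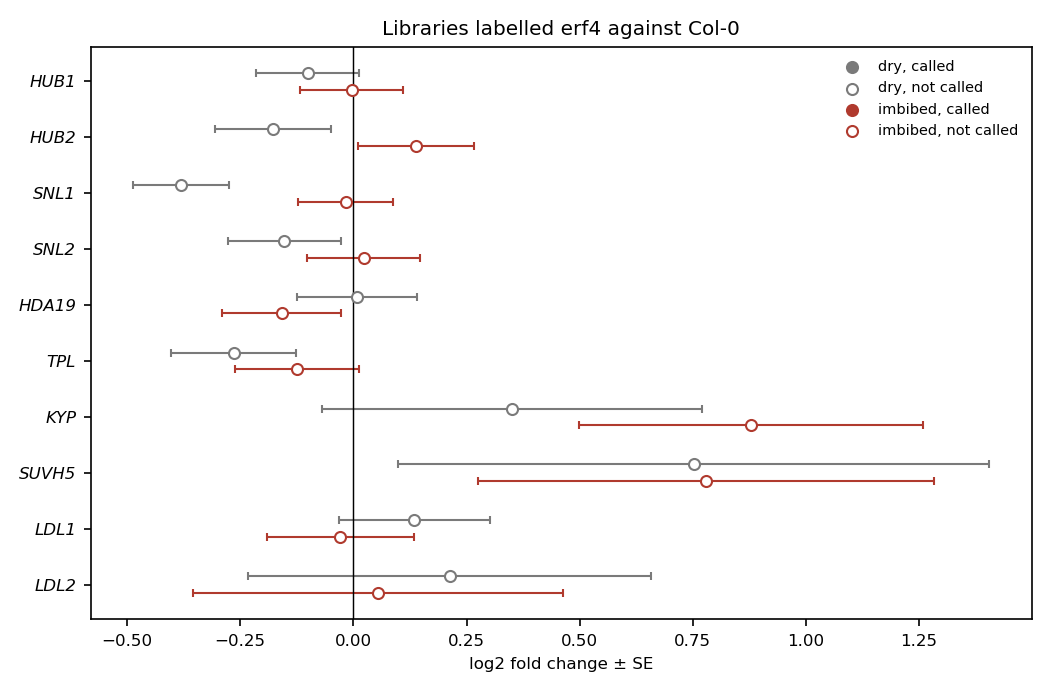
Log2 fold change (x axis, ± SE) of each gene between libraries labelled erf4 and those of Col-0, for each seed state. All points are open because none was called. SNL1 in dry seeds (-0.38) and KYP in imbibed seeds (0.88) had the smallest p.

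The response to imbibition was not called as different between the genotypes for any of the 10 (edgeR, adjusted p between 0.419 and 1), and 1 had an unadjusted p under 0.05. Over all tested genes 0% were called in this interaction, 10.5% passed an unadjusted 0.05, and 187 genes were called by DESeq2. With the replicate number as a block within each genotype, edgeR called 594 genes of the table and none of the 10. HUB2 fell by 0.78 in Col-0 and by 0.46 in erf4, a difference of 0.32 ± 0.18 (edgeR adjusted p = 0.577). KYP rose by 1.55 and 2.07, a difference of 0.53 ± 0.57 (edgeR adjusted p = 0.785).

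Other chromatin genes of the same pathways were taken from lists chosen with earlier results of these data known. They hold 67 genes, of which 65 were tested, with SUVH7 and ERF105 at 0 counts in all libraries. None was called between genotypes in either state by edgeR. Of the 65, 14 had an unadjusted p under 0.05 dry and 7 imbibed, against 15.6% and 15% of all tested genes. With imbibition 35 were called in Col-0 and 38 in erf4, out of 65, beside 52.5% and 55.5% of all genes. Named below are up to 3 called genes per list and genotype with the smallest adjusted p, unless stated otherwise.

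The partners of the HUB ligase moved in both directions. Of 12 genes of H2B ubiquitination and transcript elongation, 2 rose and 4 fell in Col-0, and 2 rose and 5 fell in erf4. TFIIS, an elongation factor also known as a dormancy gene, fell by 1.28 ± 0.13 in Col-0 and fell by 1.25 ± 0.13 in erf4 (edgeR adjusted p = 5.99e-06 and 6.33e-06). UBC2, a ubiquitin-conjugating enzyme that works with HUB1 and HUB2, fell by 1.01 ± 0.18 and fell by 0.66 ± 0.18 (edgeR adjusted p = 0.000373 and 0.00634). UBC1, its close relative, named after its values were seen, fell by 0.89 ± 0.17 in each (edgeR adjusted p = 0.000691 and 0.000634). VIP5, of the PAF1 elongation complex, fell by 0.38 ± 0.14 and fell by 0.81 ± 0.14 (edgeR adjusted p = 0.0376 and 0.000348). ATXR7, an H3K4 methyltransferase, rose by 1.02 ± 0.15 and 1.16 ± 0.15 (edgeR adjusted p = 8.41e-05 and 2.61e-05). Scaled to library totals, 7 of this list rose and 2 fell in Col-0, and 6 rose and 1 fell in erf4, TFIIS falling in both.

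Among 16 further co-repressor and deacetylase genes, 8 rose and 2 fell in Col-0, and 8 rose and none fell in erf4. The genes with the smallest adjusted p were HD2A, HD2B and HD2D, which encode plant-specific deacetylases. HD2A stood at 24.2 ± 3.22 RPKM in dry and 102.1 ± 14.04 RPKM in imbibed Col-0 (2.08 ± 0.22, edgeR adjusted p = 9.11e-06), and rose by 1.95 ± 0.22 in erf4 (edgeR adjusted p = 1.24e-05). HD2D rose by 1.73 ± 0.21 and 2.15 ± 0.21 (edgeR adjusted p = 2.42e-05 and 4.06e-06). HD2B, at 154.4 ± 2.47 RPKM in dry Col-0, rose by 0.92 ± 0.14 and 1.40 ± 0.14 (edgeR adjusted p = 0.000126 and 3.91e-06). The fourth gene of this type, HD2C, named after its values were seen, was not called (0.19 and 0.14, edgeR adjusted p = 0.311 and 0.45). With library totals, 13 rose in Col-0 and 15 in erf4, and none fell. Of all genes called under that scaling, 78.1% were higher in Col-0 and 76.5% in erf4.

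Of 10 other genes of H3K9 methylation, 9 were tested, and 2 rose and 1 fell in each genotype. SUVH3 rose by 1.40 ± 0.20 and 1.54 ± 0.20 (edgeR adjusted p = 7.6e-05 and 3.24e-05). SUVR4, with 0 to 8 counts in every dry library, rose by 3.30 ± 0.74 and 4.06 ± 0.75 (edgeR adjusted p = 0.0022 and 0.00052). Like SUVH5, it passed the filter on low counts through its imbibed libraries alone. SUVH9 fell by 0.58 ± 0.12 and fell by 0.36 ± 0.12 (edgeR adjusted p = 0.00097 and 0.016). With library totals SUVH9 stood at -0.09 and 0.15, neither called. SUVH6, the other close relative of KYP, named after its values were seen, was not called (0.09 and -0.36, edgeR adjusted p = 0.733 and 0.139).

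Of 7 further demethylase genes, 3 rose and 2 fell in Col-0, and 4 rose and 2 fell in erf4. JMJ22, known to favour light-driven germination, rose from 6.74 ± 1.47 to 26.6 ± 0.471 RPKM in Col-0 (1.98 ± 0.15, edgeR adjusted p = 6.81e-07) and by 1.68 ± 0.15 in erf4 (edgeR adjusted p = 1.66e-06). REF6, an H3K27 demethylase, rose by 0.89 ± 0.14 and 1.31 ± 0.14 (edgeR adjusted p = 0.000186 and 7.24e-06). Its relative ELF6 fell by 0.82 ± 0.12 and fell by 0.68 ± 0.12 (edgeR adjusted p = 0.000107 and 0.000434). ELF6 scaled to library totals still fell in Col-0 and was not called in erf4 (edgeR adjusted p = 0.0485 and 0.294).

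Of 12 Polycomb and remodelling genes, 4 rose and 2 fell in Col-0, and 4 rose and 3 fell in erf4. The Polycomb ring-finger genes RING1B (-1.23 ± 0.17 and -1.04 ± 0.17) and RING1A (-1.02 ± 0.24 and -1.46 ± 0.24) fell in both, with edgeR adjusted p between 7.54e-05 and 0.0032. EMF2 (0.64 ± 0.12 and 0.44 ± 0.12) and FIE (0.65 ± 0.17 and 0.84 ± 0.17), of the complex that methylates H3K27, rose in both, with edgeR adjusted p between 0.00047 and 0.00576. Both RING1 falls held when scaled to library totals, where 9 rose and 2 fell in each genotype.

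**Figure D5:**
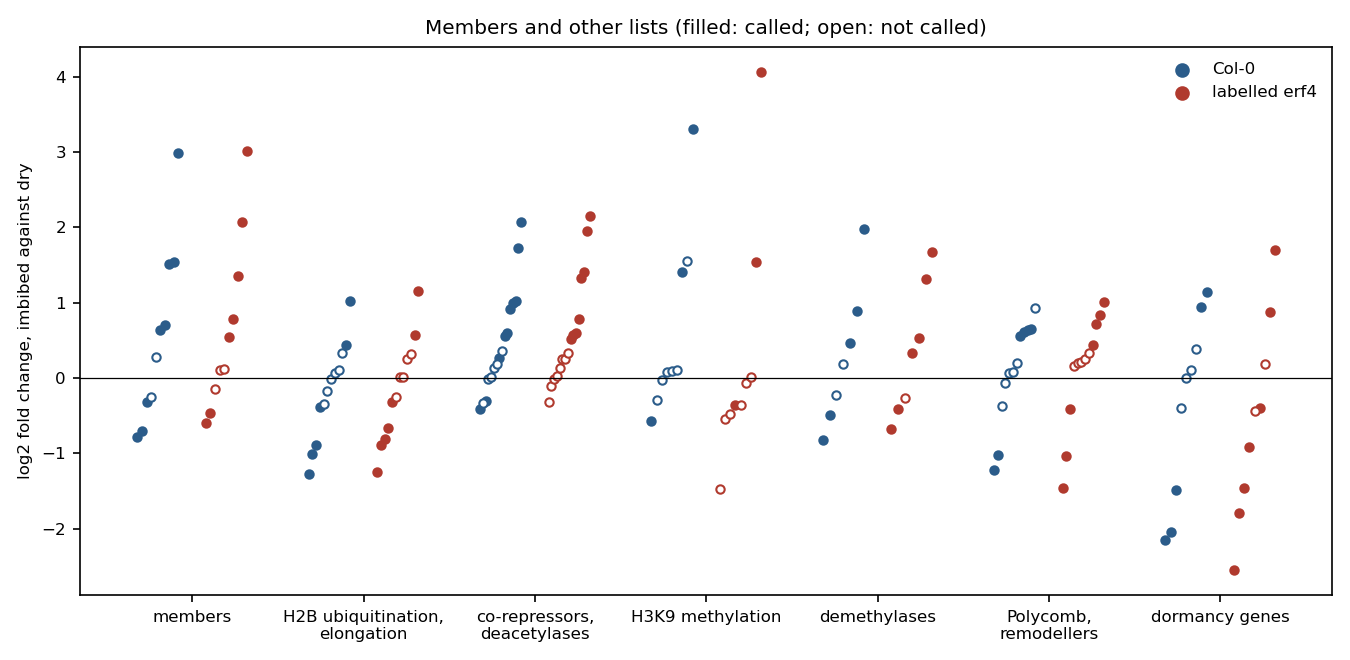
Log2 fold change between imbibed and dry seeds (y axis) of every tested gene of the 10 regulators and of the 6 other lists, in Col-0 and in libraries labelled erf4. Filled points were called and open points were not. Every list holds called rises and called falls, except that the co-repressors and deacetylases hold no called fall in erf4.

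The last list holds dormancy and germination genes whose expression is known to change in mutants of the 10 regulators, and 9 of its 10 genes were tested. In Col-0, 2 rose and 3 fell with imbibition, and in erf4 2 rose and 5 fell. With library totals, 3 rose and 2 fell in Col-0, and 2 rose and 3 fell in erf4. DOG1 stood at 25.3, 36.5 and 30.1 RPKM in dry Col-0 and at 8.68, 9.40 and 14.7 RPKM in imbibed Col-0. In erf4 it stood at 20.2, 18.2 and 14.5 RPKM dry and at 6.85, 6.13 and 6.32 RPKM imbibed. The states did not overlap in either genotype, and DOG1 fell by 1.49 ± 0.20 in Col-0 and fell by 1.45 ± 0.20 in erf4 (edgeR adjusted p = 4.98e-05 and 5.63e-05), also when scaled to library totals. PER1, a seed peroxiredoxin gene, fell by 2.04 ± 0.19 and fell by 1.80 ± 0.19 (edgeR adjusted p = 3.24e-06 and 7.22e-06). ABI3, a master regulator of seed maturation, rose by 1.14 ± 0.21 and 0.87 ± 0.21 (edgeR adjusted p = 0.000474 and 0.00282). ACO1, of ethylene synthesis, rose by 0.94 ± 0.32 and 1.69 ± 0.32 (edgeR adjusted p = 0.0253 and 0.00066). ACO4, also of ethylene synthesis and named after its values were seen, fell by 2.15 ± 0.64 and fell by 2.55 ± 0.64 (edgeR adjusted p = 0.0179 and 0.00704); scaled to library totals its fall was called in erf4 and not in Col-0 (edgeR adjusted p = 0.0274 and 0.0643).

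Outside the 10, the genes whose log2 CPM profile over the 12 libraries was most like each of them were found by Pearson's r, given as a description with no test. The 12 points share the dry and imbibed states. The r was 0.992 for HUB1 with AT1G73380 and for HUB2 with AKINBETA1, 0.987 for SUVH5 with GCS1, and 0.986 for TPL with AT5G26160. It was 0.983 for HDA19 with GTE7, 0.981 for KYP with AT1G32930, 0.969 for LDL1 with AT5G21070, and 0.962 for LDL2 with MAP70-3. It was 0.947 for SNL1 with UBP13 and 0.941 for SNL2 with AT4G10843.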

How the data were processed

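RNA was sequenced from 12 seed libraries, grouped by their own labels. The deposited table holds unnormalized counts with exonic lengths, in a featureCounts layout per the file headers. The submitters' processing notes name DESeq2 1.34.0, featureCounts 2.0.1, fastp 0.20.0, HISAT2 2.1.0 and TAIR10. Strand setting and annotation release are not given in the sources used here.

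Genes passing filterByExpr (18897, with 99.97% of counts) were scaled by TMM and fitted in edgeR 4.0.16 (R 4.3.3) as 1 quasi-likelihood model of 4 group means, robust, with 8 residual degrees of freedom. Calls were made at 0.05 after Benjamini-Hochberg adjustment across tested genes. SEs come from the fitted information matrix and quasi-dispersion. RPKM uses the deposited lengths. Related pairs were compared by exact permutation over libraries (SciPy 1.17.1). Near copies were sought with BLAST 2.17.0 at 95% identity over 100 bp, and apart from stretches shared with overlapping genes none was found. The fit was tested on simulated data. At these depths 3 counts are 0.070 to 0.094 CPM of the unscaled library totals.

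The 10 genes and the lists were chosen with earlier results of these data known. Alternatives were RLE factors, other filters (none, or 1 CPM in 6 libraries), a replicate block, the letter ending each library name (suffix letter; b or r, with r in all imbibed libraries), the compared groups alone, DESeq2 1.42.0, and leaving out libraries. Library totals and a block within each genotype were chosen after seeing the data. Same-numbered dry and imbibed erf4 libraries deviated together (correlations 0.341 to 0.350 across genes). In Col-0 these correlations were 0.066 to 0.215, and between genotypes -0.277 to 0.077. Libraries with different numbers were not compared, so whether the numbers pair libraries was not tested. The main fit has no replicate block and so leaves any such pairing unused. A block within each genotype took the genes called with imbibition from 10496 to 11860 in erf4 and from 9915 to 11352 in Col-0.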

Additional observations from a re-analysis of the deposited data

How the results depend on the processing

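Each of the 5 rises with imbibition kept its direction under every alternative run, and TPL and KYP kept their calls in both genotypes. SUVH5 kept its calls where it was tested. It passed the main filter through its imbibed libraries alone, so its rise was in part a condition of its being tested. It was not tested with the filter of 1 CPM in 6 libraries. Scaled to library totals, no member was called lower with imbibition (0 in Col-0 and 0 in erf4) and 8 were called higher in erf4. In erf4, 11269 of the 18897 tested genes were called under that scaling, 76.5% of them higher. SNL1 then turned to 0.24 and SNL2 to 0.17 in Col-0, and HUB2 to 0.041 and SNL2 to 0.37 in erf4. Uncalled genotype differences turned too: HUB1 to 0.017 dry and 0.13 imbibed, and in imbibed seeds SNL1 to 0.12, TPL to 0.0029 and LDL1 to 0.095. In imbibed seeds HUB1 also turned to 0.0083 with the filter of 1 CPM and to 0.0018 on the compared groups alone. The suffix letter turned HDA19 dry to -0.084, and in the interaction SUVH5 to -0.11 and LDL2 to 0.017. With the pairing by number, KYP/SUVH5 (-1.16) and LDL1/LDL2 (-0.79) lost their calls, at the smallest p that 6 pairs allow. Given the other ratios, this loss was set by the number of pairs. The replicate block in edgeR changed no call of the 10 in the model with 1 block for all groups, and within each genotype it added calls of SNL1 (-0.24) and HDA19 (0.28) in Col-0. HUB1/HUB2 differed by 0.077 within Col-0 and -0.15 within erf4.

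Genes called over the table numbered 207 in dry seeds, and 464 with the suffix letter, 114 on the compared groups, 911 by DESeq2 (1 of them a member, SNL1) and 41 (without Col-0 dry replicate 1) to 384 (without both erf4 libraries of replicate 1) with libraries left out. In imbibed seeds they numbered 4, and 18 without a filter, 511 by DESeq2 and 4 to 386 (without both of replicate 2) with libraries left out. In the interaction there were 0, and 4 without a filter, 594 with the block within each genotype, 187 by DESeq2 and 0 to 15 (without erf4 dry replicate 1) with libraries left out. With libraries left out, members called higher in imbibed than in dry erf4 seeds numbered 3 (without both of replicate 1) to 5. Members called between genotypes stayed at 0 in each state. The genotype difference of HDA19 ranged from -0.0551 to 0.13 dry, and its imbibition difference in erf4 from -0.0009 to 0.21. The genotype difference in imbibed seeds ranged from -0.085 to 0.062 for HUB1, -0.039 to 0.011 for SNL1, -0.085 to 0.062 for LDL1 and -0.13 to 0.38 for LDL2. In the interaction SUVH5 ranged from -0.36 to 0.30 and LDL2 from -0.38 to 0.15. SNL1/SNL2 ranged from 0.11 to 0.21. The cause of these shifts was not tested. Dry SUVH5, KYP and LDL2 rest on 2 to 31 counts a library.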
